A study of Mus musculus with 4 samples.

Results

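Icos, Tnfrsf9, Tnfrsf1b and Cd40lg are the costimulatory and tumour necrosis factor (TNF) superfamily genes described here in mouse regulatory T cells (Tregs). They were chosen by gene name and are 4 of the 282 genes in the deposited table. Each was lower in YFP-positive than in YFP-negative Tregs, at 37.1% to 46.1% of the YFP-negative mean. All cells came from spleen and lymph nodes of males aged 6 to 8 weeks that carried Foxp3RFP-Cre, RosaYFP and Mll1fl/fl. Foxp3RFP-Cre gives Foxp3-expressing cells a red fluorescent protein and Cre recombinase, RosaYFP makes yellow fluorescent protein where Cre has acted, and Mll1fl/fl is a floxed gene of the histone methyltransferase MLL1. The study compared RFP+YFP+ Tregs, labelled MLL1KO, with RFP+YFP- Tregs, labelled WT, in 2 libraries each. The labels give mouse numbers 1 and 2 to both populations and do not say whether a number is an animal or a pool, so the spread between libraries may be in part technical. The YFP-negative cells were not Cre-free controls. They carried the same 3 alleles and were told apart by the reporter alone.

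T cells need a costimulatory signal beside the antigen receptor signal. ICOS is a CD28 family receptor that is induced on activated T cells and acts mainly through PI3 kinase. TNF receptor superfamily members such as 4-1BB (Tnfrsf9) and TNFR2 (Tnfrsf1b) recruit TRAF adaptors and switch on NF-kB, and effector Tregs are known to carry both. CD40 ligand (Cd40lg) is a TNF superfamily ligand by which activated helper T cells signal to CD40 on B cells and dendritic cells. Conventional CD4 T cells are known to make more of it than Tregs do.

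The values are normalized counts, which are gene read counts that the authors divided by a size factor for each library. The table holds genes that the authors had selected on these same libraries for an adjusted p under 0.05 and an absolute log2 fold change over 1. A test on it therefore describes the list and is not independent evidence. Reads were inferred from the values, which were multiples of 1 step per library within 0.001 reads. The table has few low values by which to check that step, so inferred reads are approximate. They summed to between 196337 and 329350 per library over the listed genes, which is not the full depth. The targeted gene and the 10 Treg markers fixed for a check of the label, Foxp3 among them, were not analysed here. Neither the deletion nor the Treg label is thus checked by these values. In bulk RNA, fewer cells that make a transcript and less of it per cell cannot be told apart.

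All 4 genes were lower in YFP-positive Tregs in both mice, and the groups did not overlap in any of them. The background is high, since the groups did not overlap in 100% of the 282 listed genes and were lower without overlap in 69.5%. By limma with Benjamini-Hochberg adjustment over the 282 genes, 4 of 4 passed an adjusted p of 0.05, as did 100% of the list (69.5% as lower genes). The count of 4 therefore says nothing about these genes in particular. Their median log2 fold change was -1.31, against -1.90 for the 196 lower genes and -1.51 for all 282. With 2 libraries against 2, an exact permutation test over samples cannot go below a two-sided p of 0.333.

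**Figure D1:**
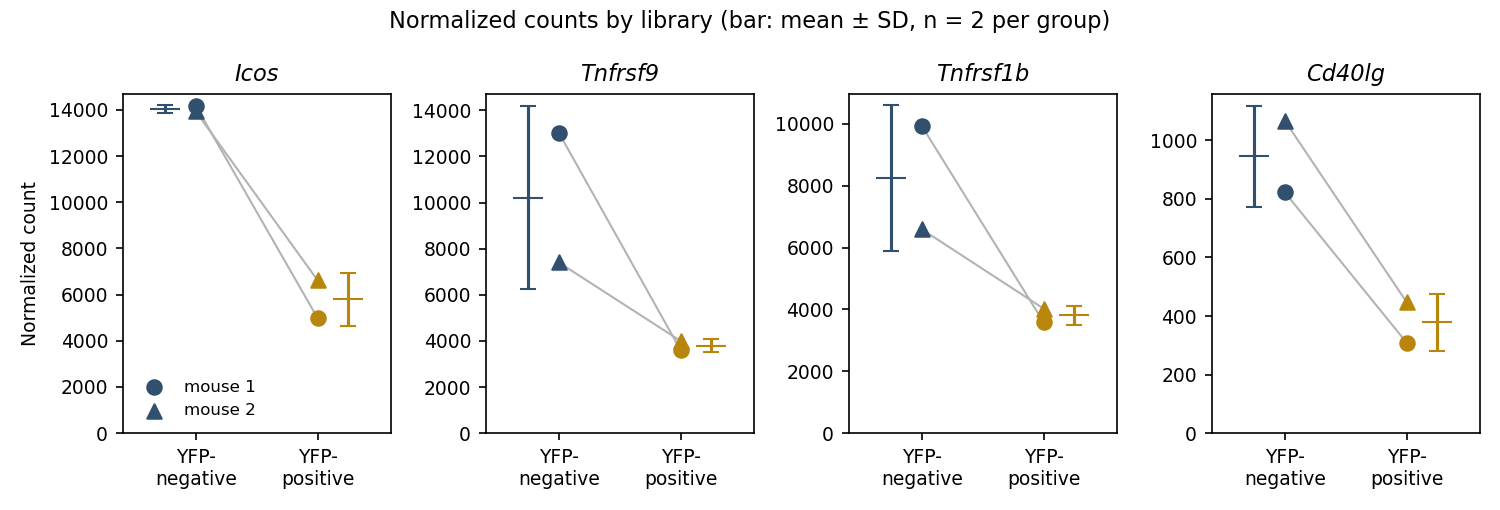
Normalized count (y axis, from 0) of each gene in the YFP-negative and YFP-positive libraries. Circles are mouse 1 and triangles mouse 2, grey lines join libraries with the same mouse number, and bars beside the points are mean ± SD (n = 2). In each gene both YFP-positive libraries lie below both YFP-negative libraries, and the YFP-negative libraries of Tnfrsf9 and Tnfrsf1b lie far apart.

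Icos (ENSMUSG00000026009) lies on the plus strand of chromosome 1, 60977927 to 61000320 (GRCm38, the mm10 build), and GENCODE M21 gives it 2 protein-coding transcripts from 1 start site. Its normalized count was 4977 and 6618 in YFP-positive mice 1 and 2, and 14182 and 13934 in YFP-negative mice 1 and 2. The YFP-negative libraries were nearly equal, 1.77% of their mean apart, whereas YFP-positive mouse 2 was at 1.33-fold of YFP-positive mouse 1. The means were 5797 ± 1160 and 14058 ± 176 (SD, n = 2 each), so the YFP-positive level was 41.2% of the YFP-negative level. On the log2(normalized count + 1) scale Icos fell by 1.29 ± 0.44 (SE), with limma adjusted p = 0.00465. The 95% interval of this difference ran from -2.17 to -0.42. With the mouse as a replicate block the limma adjusted p was 0.0770. Over the 14239 tests implied by the authors' p-values it was 0.235, so the limma call was lost in both. The authors' own test gave Icos an adjusted p of 0.00158, the measure on which the list was selected. By mean normalized count per kilobase of exon, Icos ranked 11 among the 282 genes.

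The CD28 family genes Cd28 and Ctla4 neighbour Icos on the same strand. Ctla4 ends 62094 bases before Icos begins, and Cd28 ends 113640 bases before Ctla4. Neither has a value here. Of the 5 CD28 family genes fixed in a list, 2 were in the table, Icos itself and 1 other, and both fell, beside 69.5% of all listed genes. The other was Pdcd1, the gene of the inhibitory receptor PD-1, with normalized counts of 1532 and 1756 in YFP-positive and 5339 and 4351 in YFP-negative mice 1 and 2. Its log2 fold change was -1.55 ± 0.36.

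Tnfrsf9 (ENSMUSG00000028965), the 4-1BB gene, lies on the plus strand of chromosome 4, 150914562 to 150946102. Its normalized count was 3595 and 3994 in YFP-positive mice 1 and 2, and 13027 and 7403 in YFP-negative mice 1 and 2. The YFP-positive libraries were close, with mouse 2 at 1.11-fold of mouse 1, and the YFP-negative library of mouse 1 was at 1.76-fold of that of mouse 2. The means were 3795 ± 282 and 10215 ± 3977 (SD, n = 2 each), a ratio of 37.1%. Tnfrsf9 fell by 1.37 ± 0.41 on the log2 scale (95% interval -2.20 to -0.54, limma adjusted p = 0.00176). Over 14239 tests the limma adjusted p was 0.0890 and the limma call was lost, whereas the authors' own test gave an adjusted p of 0.00223. Leaving out YFP-negative mouse 1 gave -0.97 on the log2 scale with a limma adjusted p of 0.0439, and leaving out YFP-negative mouse 2 gave -1.78. The size of the Tnfrsf9 difference thus depends on which YFP-negative library is used. With 2 libraries per group these shifts are equal and opposite by arithmetic, so they do not tell which library is unusual.

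Tnfrsf1b (ENSMUSG00000028599), the TNFR2 gene, lies on the minus strand of chromosome 4, 145213463 to 145246870. Its normalized count was 3587 and 4027 in YFP-positive mice 1 and 2, and 9935 and 6594 in YFP-negative mice 1 and 2. The pattern was that of Tnfrsf9, with close YFP-positive libraries and YFP-negative mouse 1 at 1.51-fold of YFP-negative mouse 2. The means were 3807 ± 311 and 8265 ± 2363 (SD, n = 2 each), a ratio of 46.1%. Tnfrsf1b fell by 1.09 ± 0.40 on the log2 scale (95% interval -1.90 to -0.28, limma adjusted p = 0.00928). This was the smallest change among the 4 genes and the least stable call. Its adjusted p was 0.0700 with the mouse as a replicate block, 0.469 over 14239 tests, 0.0522 without YFP-positive mouse 1 and 0.0709 without YFP-negative mouse 1, where the log2 fold change was -0.79. In the authors' deposited table its log2 fold change was -1.12, close to the bound of 1, and 7 of the 196 lower genes had a smaller fall. Its adjusted p by the authors' own test was 0.0206.

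Both receptor genes are part of a group on chromosome 4. Of the 7 TNF receptor superfamily genes of the fixed list on this chromosome, 2 were in the table. Tnfrsf1b and Tnfrsf9 are 5.67 Mb apart, and Tnfrsf8, which lies 20266 bases from Tnfrsf1b, has no value here. GENCODE M21 gives Tnfrsf1b 1 start site and Tnfrsf9 8 start sites over 9 transcripts. The table counts whole genes, so it does not tell which Tnfrsf9 start was used.

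MLL1 carries a CXXC domain that binds unmethylated CpG sites, so the bases before the start sites are shown with their CpG sites. RefSeq (GRCm38.p6) gave 3 start windows for 2 of the 4 genes, Tnfrsf1b and Tnfrsf9. The windows hold the 250 bases before the start, 5′ to 3′ on the strand of the gene, with CG in capitals. The Tnfrsf1b window is chr4:145246871-145247120, minus strand, and that of the upstream Tnfrsf9 start is chr4:150919905-150920154, plus strand.
Tnfrsf1b: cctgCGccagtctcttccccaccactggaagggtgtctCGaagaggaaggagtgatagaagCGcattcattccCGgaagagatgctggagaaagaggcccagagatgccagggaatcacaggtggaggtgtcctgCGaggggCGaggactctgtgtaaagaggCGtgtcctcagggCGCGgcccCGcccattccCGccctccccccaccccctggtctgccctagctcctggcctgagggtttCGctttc
Tnfrsf9: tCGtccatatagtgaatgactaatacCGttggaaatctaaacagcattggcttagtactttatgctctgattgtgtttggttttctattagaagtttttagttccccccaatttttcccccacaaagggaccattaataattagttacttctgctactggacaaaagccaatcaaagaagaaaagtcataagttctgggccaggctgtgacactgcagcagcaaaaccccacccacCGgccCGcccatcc
The Tnfrsf1b window held 12 CpG sites and 62.8% G and C, and 66.5% of the 32851 RefSeq windows of this length had fewer CpG sites. The Tnfrsf9 window held 4 CpG sites and 43.2% G and C, and 37.8% of windows had fewer. The median over all windows was 6 CpG sites. The window of the other Tnfrsf9 start also held 4 CpG sites, with 49.6% G and C. Whether the base composition before the starts bears on the falls of these genes was not tested.

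Some TNF receptor genes of T cells, such as Tnfrsf9, are induced by antigen receptor signals, in which AP-1 takes part. The windows were therefore searched for the AP-1 motif TGANTCA, on both strands and with any overlap allowed. The motif was chosen after the windows had been seen. It was not in the windows printed above. The second RefSeq start of Tnfrsf9 (150927999) had 1 match, 15 bases before it. It is printed with its flanks, the match in capitals, at chr4:150927978-150927997, plus strand.
Tnfrsf9 AP-1 match: ctcagtTGAGTCAcaggtcc
TGANTCA occurs in 6.75% of all 32851 windows. A match is a string of letters and not a measured binding site. This window is not printed whole because 81 of its 250 bases lie in the first exon of another Tnfrsf9 transcript. That transcript starts at 150927918, so the match lies inside its exon.

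Cd40lg (ENSMUSG00000031132) lies on the plus strand of chromosome X, 57212143 to 57224042, with 1 annotated transcript of 5 exons. Its normalized count was 309 and 447 in YFP-positive mice 1 and 2, and 823 and 1067 in YFP-negative mice 1 and 2. In both populations mouse 2 was the higher, by 1.45-fold in YFP-positive and by less in YFP-negative Tregs, and the groups stayed apart. The means were 378 ± 98.0 and 945 ± 173 (SD, n = 2 each), a ratio of 40.0%. Cd40lg fell by 1.33 ± 0.34 on the log2 scale (95% interval -2.01 to -0.65, limma adjusted p = 0.000393). Among the 4 genes, only Cd40lg passed by limma both with the mouse block (adjusted p = 0.00273) and over 14239 tests (0.0198). The authors' own test gave it an adjusted p of 0.0103. With the variance trend Cd40lg had the smallest SE of the 4 genes. Without the trend its SE was 0.396 and that of Icos 0.381. The limma adjusted p without the trend was 0.00776 for Cd40lg, 0.00745 for Icos, 0.00792 for Tnfrsf9 and 0.0185 for Tnfrsf1b. Cd40lg was also the gene with the fewest reads. The reads inferred from the step were 297 and 422 in the YFP-positive and 839 and 1186 in the YFP-negative libraries, which would put the counting error alone at 5.80% in the lowest. For Icos, Tnfrsf9 and Tnfrsf1b the counting error inferred in this way was at most 1.70% in any library.

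Levels of different genes were set side by side as normalized counts per kilobase of exon, with the gene length of the table. In YFP-negative Tregs the means per kilobase were 4099 ± 51.2 for Icos, 3753 ± 1461 for Tnfrsf9, 2165 ± 619 for Tnfrsf1b and 756 ± 138 for Cd40lg (SD, n = 2). In YFP-positive Tregs they were 1690 ± 338, 1394 ± 104, 997 ± 81.6 and 303 ± 78.4 in the same order. By these lengths the order was the same in both populations. The length covers all exons of a gene together. It is 2722 bases for Tnfrsf9, whose longest transcript has 2115, and 3430 for Icos, whose longest has 3241. The order of Icos and Tnfrsf9 rests on this choice of length. Icos and Tnfrsf9 were not separated, since their libraries overlapped in each population, and in YFP-negative mouse 1 Tnfrsf9 (4786 per kilobase) was above Icos (4135). Tnfrsf1b was below Tnfrsf9 without overlap in each population, though in YFP-negative Tregs only by 2720 against 2602 per kilobase. Cd40lg was below the other genes in all 4 libraries.

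**Figure D2:**
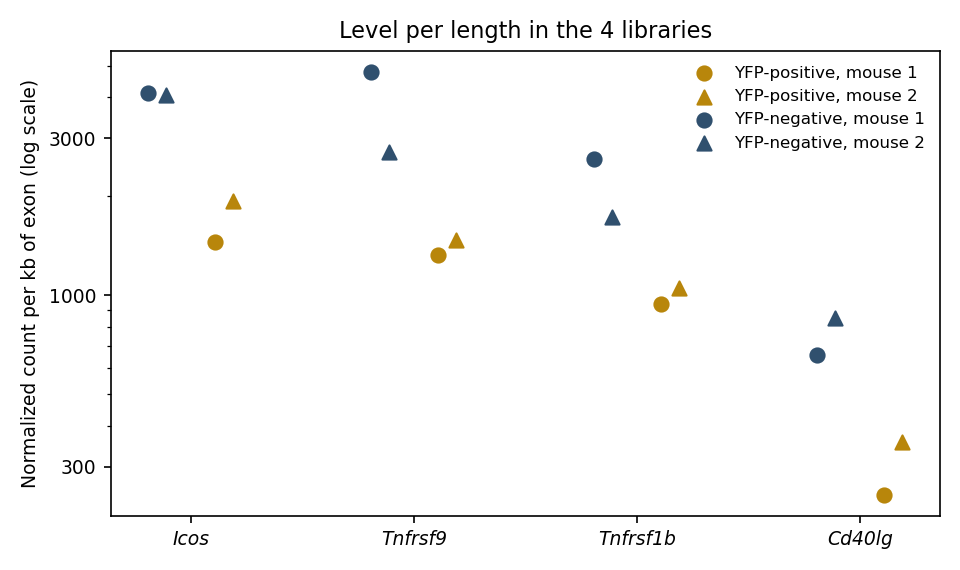
Normalized count per kilobase of exon (log axis) for the 4 genes in each library. Colours give the population and symbols the mouse. Icos and Tnfrsf9 share a range, Tnfrsf1b lies lower, and Cd40lg lies lowest, at 247 to 854 per kilobase.

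Together the 4 genes held 6.11% and 6.92% of the listed normalized counts in YFP-positive mice 1 and 2, and 11.8% and 10.2% in YFP-negative mice 1 and 2. By mean level per kilobase Icos, Tnfrsf9, Tnfrsf1b and Cd40lg ranked 11, 13, 24 and 48 among the 282 genes. Their changes were among the smaller ones of the list. By the authors' log2 fold change, 26, 42, 7 and 34 of the 196 lower genes had a smaller fall than Icos, Tnfrsf9, Tnfrsf1b and Cd40lg. The 16 lower genes with a mean over 3000 normalized counts, a measure of reads and not of level per length, held the 3 receptor genes and had limma log2 fold changes from -2.49 to -1.04. Within such highly counted genes the 3 receptors did not reach the larger falls.

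**Figure D3:**
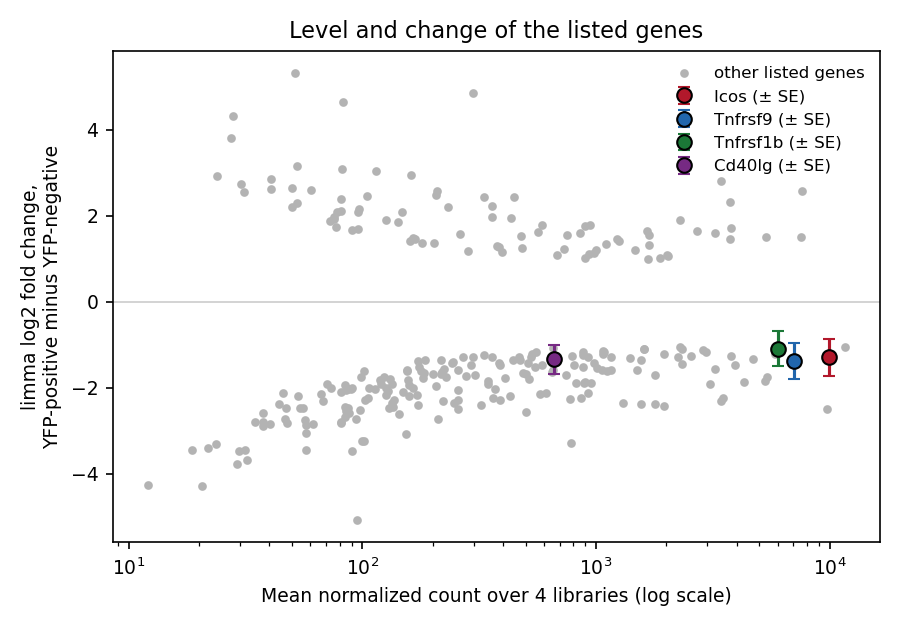
Mean normalized count over the 4 libraries (log x axis) against the limma log2 fold change (y axis, YFP-positive minus YFP-negative) for the 282 listed genes. The 4 genes are coloured with ± SE bars. The 3 receptor genes lie at the right edge and near the upper edge of the lower genes, and the empty band around 0 is the authors' selection.

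Within a mouse number, the log2 differences (YFP-positive minus YFP-negative) were -1.51 and -1.07 for Icos in mice 1 and 2, and -1.86 and -0.89 for Tnfrsf9. They were -1.47 and -0.71 for Tnfrsf1b, and -1.41 and -1.25 for Cd40lg. Each gene had the larger fall in mouse 1, as did 161 of the 196 lower genes (82.1%), whose median difference was -2.19 in mouse 1 and -1.60 in mouse 2. The larger fall in mouse 1 is thus shared with most of the list. The libraries that made it differed between genes. For Icos, the YFP-negative libraries were level, and the YFP-positive log2 gap (mouse 2 minus mouse 1) was 0.41. The median absolute YFP-positive gap over the list was 0.44. For Tnfrsf9 and Tnfrsf1b, the YFP-negative library of mouse 1 was above that of mouse 2, with log2 gaps of -0.82 and -0.59. The median absolute YFP-negative gap over the list was 0.35. Cd40lg went the other way, with gaps of 0.38 in YFP-negative and 0.53 in YFP-positive Tregs. Whether the fall itself differed between the mice was not tested, with 1 library per population and mouse.

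**Figure D4:**
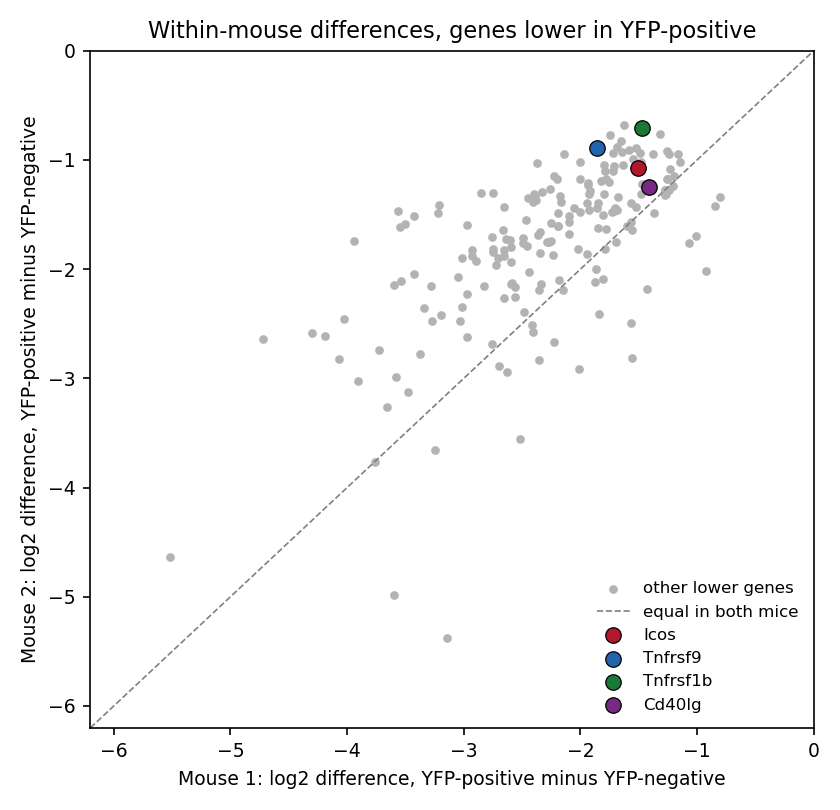
Log2 difference (YFP-positive minus YFP-negative) in mouse 1 (x axis) against mouse 2 (y axis) for the 196 lower genes, with the 4 genes coloured. The dashed line marks equal differences. All 4 genes lie above the line, Cd40lg closest to it and Tnfrsf9 farthest.

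The ratio of Tnfrsf9 to Tnfrsf1b per kilobase was 1.41 and 1.39 in YFP-positive mice 1 and 2, and 1.84 and 1.57 in YFP-negative mice 1 and 2. Of the 6 pairs among the 4 genes, this was the only pair whose ratio did not overlap between the populations. Icos to Cd40lg was 5.87 and 5.39 against 6.28 and 4.76, which overlapped. Random order alone keeps 2 libraries apart from 2 others with a probability of 0.333, the smallest two-sided exact permutation p. The share over all pairs of listed genes was not counted. These ratios are therefore a description, and 1 pair of 6 does not mark this pair out.

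Across the 4 libraries, likeness to each gene was measured as the Euclidean distance between log2(normalized count + 1) values centred on each gene's mean, among protein-coding listed genes. Icos was closest to Vamp5, Lilrb4a and Wls, at distances of 0.07, 0.11 and 0.13 log2 units. Tnfrsf9 was closest to Lxn, Aplp1 and Sdcbp2 (0.17, 0.18 and 0.20), in which YFP-negative mouse 1 was also the highest library. Tnfrsf1b was closest to Plscr1, Cd82 and Gpr183 (0.15, 0.17 and 0.18). Cd40lg was closest to Ms4a6d, Plcb4 and Runx2 (0.06, 0.15 and 0.17), in which mouse 2 was the higher in both populations. Among the 4 genes themselves, Icos and Cd40lg (0.30) and Tnfrsf9 and Tnfrsf1b (0.32) were the closest pairs, and Tnfrsf9 and Cd40lg (0.89) the most distant. Other listed genes were nearer. Among all of them, Cd40lg ranked only 22 by closeness to Icos, and Tnfrsf1b ranked 11 by closeness to Tnfrsf9. The closest genes were picked on these same library values, so the library order they share with a member is built into the choice. With 4 libraries and a list selected on 1 contrast, these distances describe the libraries only.

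The wider pathway was read from 7 lists with 111 genes. Of these genes, 6 were in the table, namely the 4 genes described here, Pdcd1 and Maf. All 6 fell, beside 69.5% of all listed genes, but only 2 of them add to the 4 genes already given as lower. Among 28 TNF receptor superfamily genes, Tnfrsf9 and Tnfrsf1b were in the table, and among 18 TNF ligand superfamily genes Cd40lg. Among 16 genes of ICOS and PI3 kinase signalling it was Maf, a transcription factor gene downstream of ICOS in helper T cells. Maf was counted at 462 and 643 in YFP-positive and 1401 and 1963 in YFP-negative mice 1 and 2, and its log2 fold change was -1.60 ± 0.34. No gene of the lists of B7 family ligands (8 genes), other costimulatory receptors (12) or TRAF and NF-kB signalling (24) was in the table. The other genes of the 7 lists were not analysed here. The lists were written with earlier results of these data known, so their direction is not independent evidence.

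Of the 53 markers of Tregs and other cells in 7 lists, 4 were in the table, Cd40lg among them. All 4 were lower in YFP-positive Tregs, in a table of selected genes of which 69.5% were lower. Of 9 markers of activated conventional CD4 T cells, 2 were in the table, namely Cd40lg itself and Ifng, the interferon-gamma gene. Ifng was counted at 81.1 and 125 in YFP-positive and 484 and 600 in YFP-negative mice 1 and 2, and like Cd40lg it was higher in mouse 2 of each population. Of 9 B cell markers, 1 was in the table. This was Igkc, the immunoglobulin kappa constant gene, at 249 and 280 in YFP-positive and 1503 and 1072 in YFP-negative mice 1 and 2. Of 7 CD8 T cell and 7 natural killer cell markers, Gzma, a granzyme gene on both lists, was at 7.28 and 37.1 against 109 and 253. No marker of the monocyte and macrophage (8) or dendritic cell (6) lists was in the table. The labels give a purity above 95% for the sort. The part of other cells in the falls of Icos, Tnfrsf9, Tnfrsf1b and Cd40lg was not tested.

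With the mouse as a replicate block, 2 of the 4 genes passed as lower, beside 68.4% of the 282 listed genes. Over 14239 tests 1 of the 4 passed by limma, beside 59.9%. With 4 genes these counts are not told apart from the shares of the list.

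For read assignment, GENCODE M21 places Gm37039 inside Icos and Camta1, on the opposite strand, across Tnfrsf9. Neither shares an exonic base with the gene it overlaps (0 bases). No stretch of 50 bases in a transcript of the 4 genes occurred in a transcript of another gene (0 of 3379, 2758, 3816 and 1201 stretches for Icos, Tnfrsf9, Tnfrsf1b and Cd40lg). By these transcripts, their counts are thus not split with another gene over an exact stretch of this length. Copies with scattered mismatches were not searched for.

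**Figure D5:**
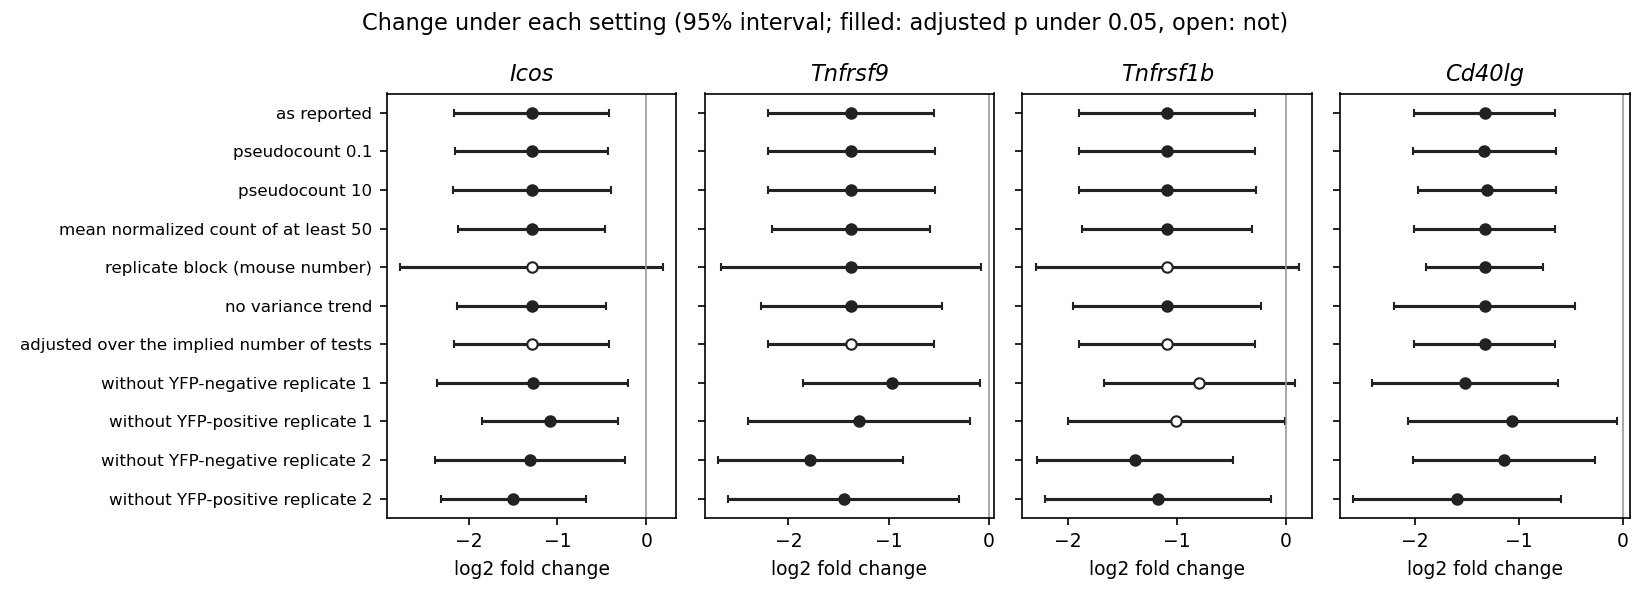
Limma log2 fold change (x axis, YFP-positive minus YFP-negative) with its 95% interval for each gene, as reported and under 10 alternatives. Filled points passed an adjusted p of 0.05 and open points did not. Cd40lg is filled throughout, Tnfrsf9 is open for 1 alternative, Icos for 2 and Tnfrsf1b for 4, and no value changes sign.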

How the data were processed

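Gene expression was measured by RNA-seq in 4 libraries. The tools named in the submitters' processing notes are featureCounts 1.5.0-p3, HISAT2 2.0.5, DESeq2 1.16.1 and StringTie 1.3.3b, on mm10, while the design text names DEGSeq. Strand setting and annotation release: not given in the sources used here. As deposited by the authors, the signal values are gene read counts that the authors divided by size factors (0.943 to 1.11, inferred from the smallest steps). The authors' log2 fold changes, p-values and adjusted p-values are YFP-positive over YFP-negative. Genes were selected by the authors at an adjusted p under 0.05 and an absolute log2 fold change over 1, so the table is no background.

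Here, limma 3.58.1 (R 4.3.3) was fitted with a variance trend to log2(value + 1) of all 282 genes, without a mouse block, with Benjamini-Hochberg adjustment. This scale understates changes of low genes. The step was tested on simulated data. Titles give both populations the mouse numbers 1 and 2, and these were taken as pairs. As a check, the deviation of mouse 1 from the mean of its population was compared between populations over the 282 genes, which are not independent replicates, and gave a Pearson's r of 0.395 and a Spearman's rho of 0.411. Members and gene lists were chosen with earlier results of these data known. Named genes were the 4 members, listed genes of the pathway lists, and the 3 closest genes to each member; marker genes were named with their lists. The number of tests behind the authors' adjustment (14239) was inferred from their p and adjusted p. Alternatives were pseudocounts of 0.1 and 10, a mean of at least 50, a replicate block, no variance trend, adjustment over 14239 tests, and leaving out each library.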

Additional observations from a re-analysis of the deposited data

How the results depend on the processing

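No alternative reversed a direction in any of the 4 genes, and none could. Since their groups do not overlap, neither a pseudocount nor leaving out a library could reverse one. The other alternatives kept the fold change of the main fit. With the mouse as a replicate block, Icos (log2 fold change -1.29, limma adjusted p = 0.0770) and Tnfrsf1b (-1.09, 0.0700) did not pass, and Tnfrsf9 (0.0415) and Cd40lg (0.00273) did, so 2 of 4 genes passed as lower beside 68.4% of the list. Adjusted over 14239 tests, Icos (-1.29), Tnfrsf9 (-1.37) and Tnfrsf1b (-1.09) did not pass by limma, and 1 of 4 passed beside 59.9%, since more tests were counted. The limma fit saw only the 282 listed genes. By the authors' own test all 4 genes had an adjusted p under 0.05, as every listed gene did by selection. Leaving out 1 library assumes that the remaining single library varies as much as the other population does, and log2 fold changes ran from -1.50 to -1.09 for Icos, -1.78 to -0.97 for Tnfrsf9, -1.39 to -0.79 for Tnfrsf1b and -1.60 to -1.06 for Cd40lg. Only Tnfrsf1b lost its call there, when mouse 1 of either population was left out. The cause of these losses was not tested. Both pseudocounts, the mean of at least 50 and the fit without a trend kept all 4 calls. The number of listed genes that passed ran from 236 to 282. A planned edgeR test on recovered reads was not run, because the table has too few low values to rely on them. Cd40lg had the largest inferred counting error of the 4 genes, 5.80% in its lowest library. Whether depth limits its result was not tested.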
